A study of Mus musculus with 11 samples.

Results

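The genes described here are 10 antiviral effectors that interferon is known to induce: Bst2, Parp9, Dtx3l, Parp12, Parp14, Samd9l, Ddx60, Rnf213, Slfn9 and Rtp4. They were chosen by name from the 14528 genes of the deposited expression table, with earlier results of these libraries known. All 10 are in the table, and all 10 passed the filter for testing, a mean of at least 0.5 FPKM over the libraries (fragment counts adjusted for gene length and library depth), as did 11323 genes in all. Ddx60, with a mean of 0.881 FPKM over all libraries and 0.172 FPKM over the 7 clone libraries, passed only through its levels in the control line, so its comparisons with the control are described apart from those of the other 9. RNA was sequenced from B16F10, a mouse melanoma cell line, in 11 libraries. The lines are 2 UNG knockout clones, ΔUNG and ΔUNG_2, and a Cas9 control, all of them B16F10 cells. UNG, uracil-DNA glycosylase, cuts uracil out of DNA and so begins base excision repair. ATRi is AZD6738, an inhibitor of the checkpoint kinase ATR, which responds to stalled DNA replication, given at 5 µM for 48 h, and DMSO is its vehicle. The groups were ΔUNG with ATRi (2 libraries), ΔUNG_2 with ATRi (1 library), the Cas9 control with ATRi (2 libraries), ΔUNG with DMSO (2 libraries), ΔUNG_2 with DMSO (2 libraries) and the Cas9 control, wild type for UNG, with DMSO (2 libraries). With 1 clone per knockout line, the loss of UNG and the history of the clone cannot be told apart.

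Interferons bind receptors at the cell surface and activate transcription factors that bind the interferon-stimulated response element (ISRE) in front of their target genes. The products of these genes block viruses at different steps. Bst2 is tetherin, a membrane protein that holds budding virus particles at the cell surface. Parp9, Parp12 and Parp14 belong to the ADP-ribosyltransferase family, which attaches ADP-ribose to proteins and nucleic acids, and Dtx3l is the ubiquitin ligase that pairs with Parp9. Tumour cells can also express such genes with no virus present, when their own DNA or RNA is sensed in the cytosol.

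The FPKM values imply a total of 17014697 to 28464757 fragments per library, and the 10 genes had between 14 and 16103 fragments each per library. Ung had 0.675 to 2.01 FPKM in the 7 clone libraries and 2.48 to 2.999 FPKM in the 4 control libraries, so the knockout clones kept some Ung RNA. In the limma test described below, Ung was called lower than in the control in ΔUNG, at log2 fold changes of -1.03 with DMSO and -1.18 with ATRi. It was not called in ΔUNG_2, at -0.40 with DMSO and -0.54 with ATRi. The 7 melanocyte markers summed to between 7220 and 9611 FPKM over all libraries. Of 8 leukocyte markers, 2 were in the table, Cd68 and Lyz2, and their sum was 8.93 to 12.6 FPKM in the 5 ATRi libraries and 2.66 to 5.39 FPKM in the 6 DMSO libraries. Most of this sum was Cd68, a lysosomal protein that other cells can also express, and the part of such cells in the results was not tested. Pecam1, Col1a1, Col3a1 and Pdgfra, markers of endothelium and fibroblasts, had at most 0.532 FPKM. In bulk RNA of this kind, fewer cells that express a gene and less RNA per cell cannot be told apart.

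Promoter sequences from RefSeq (build GRCm38.p6; 250 bases before to 50 bases after the annotated start) were found for 7 of the 10 genes, and the ISRE core was searched in them, on both strands, as GAAA followed by any 2 bases and a second GAAA. It was present in 3 of the 7, Bst2, Ddx60 and Slfn9, and in 3.44% of all 32851 promoters of the table. These 3 are shown because they carry the letters of the element to which the interferon-activated factors bind. The gamma-activated site, searched as TTCNNNGAA, was present in Bst2 alone among the 7 and in 8.30% of all promoters, and it overlaps an ISRE core there. Capitals mark the matches, and the strand is that of the gene. The Bst2 promoter lies at chr8:71537423-71537722 on the minus strand, with ISRE cores at -130 to -121 and at -124 to -115 from the start, which overlap each other. The Ddx60 promoter lies at chr8:61927837-61928136 on the plus strand, with cores at -53 to -44 and at -19 to -10. The Slfn9 promoter lies at chr11:82991781-82992080 on the minus strand, with 1 core at -45 to -36. That core lies on the strand opposite to the gene and appears as TTTCGTTTTC in the letters printed here.
Bst2: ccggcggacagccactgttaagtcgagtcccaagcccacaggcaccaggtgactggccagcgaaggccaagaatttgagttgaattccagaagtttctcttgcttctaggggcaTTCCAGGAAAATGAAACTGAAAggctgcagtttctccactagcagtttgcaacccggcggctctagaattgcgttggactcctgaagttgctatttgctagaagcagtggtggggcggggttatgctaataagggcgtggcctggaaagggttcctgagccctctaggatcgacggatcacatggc
Ddx60: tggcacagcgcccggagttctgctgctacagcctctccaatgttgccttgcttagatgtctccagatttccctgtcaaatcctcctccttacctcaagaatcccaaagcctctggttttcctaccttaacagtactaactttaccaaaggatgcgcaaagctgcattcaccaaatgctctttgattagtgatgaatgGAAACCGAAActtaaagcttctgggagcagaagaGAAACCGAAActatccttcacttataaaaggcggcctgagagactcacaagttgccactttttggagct
Slfn9: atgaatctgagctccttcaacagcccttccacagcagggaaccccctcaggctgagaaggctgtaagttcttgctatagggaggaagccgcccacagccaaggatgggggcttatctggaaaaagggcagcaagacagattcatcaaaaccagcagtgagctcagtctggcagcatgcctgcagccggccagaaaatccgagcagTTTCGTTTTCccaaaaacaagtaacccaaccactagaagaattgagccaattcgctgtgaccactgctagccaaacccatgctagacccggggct
A match is a run of letters and not a measured binding site, and the promoters of Dtx3l, Parp12, Samd9l and Rnf213 held neither motif in this window. For Rnf213 the RefSeq start lies upstream of the start in the deposited table.

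In 9 of the 10 genes, Ddx60 included, the order was the same at the top. The Cas9 control with ATRi had the highest mean FPKM, the Cas9 control with DMSO was next, and all 4 clone groups were lower. Slfn9 was the exception, with its lowest levels in the clones under ATRi. Comparisons that make up this order were known when the genes were chosen, so it is a description. The share of all genes with the same order was not counted. Clone values and control values are given per library below, gene by gene.

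**Figure D1:**
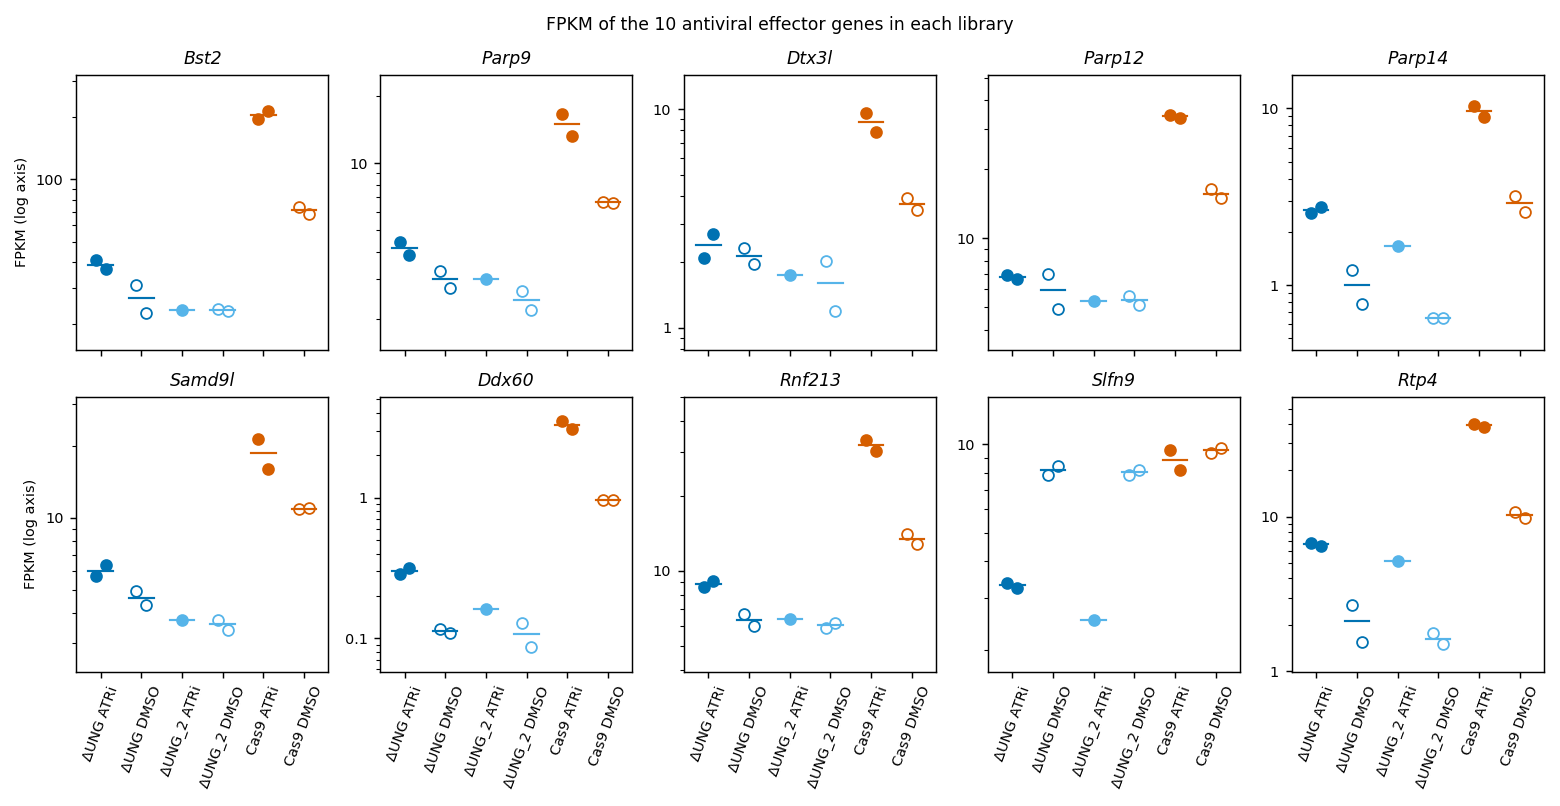
FPKM of each of the 10 genes (1 panel each, log axis) in every library; filled points are ATRi and open points DMSO libraries, bars are group means, and ΔUNG_2 ATRi has 1 library. The Cas9 control ATRi libraries stand highest in every panel but that of Slfn9, where the clone ATRi libraries, at 2.52 to 3.38 FPKM, stand lowest.

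Bst2 (chr8:71534255-71537456, minus strand) was the most abundant of the 10, at 22.6 to 214 FPKM. With ATRi it had 40.7 and 37.0 FPKM in ΔUNG, 23.5 FPKM in ΔUNG_2, and 196 and 214 FPKM in the Cas9 control. With DMSO, tetherin RNA stood at 31.1 and 22.6 FPKM in ΔUNG, 23.6 and 23.1 FPKM in ΔUNG_2, and 73.6 and 68.1 FPKM in the Cas9 control. No clone library, treated or not, reached the level of an untreated control library. The single ΔUNG_2 ATRi library fell between that clone's DMSO libraries, while both ΔUNG ATRi libraries were above their DMSO libraries.

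Parp9 and Dtx3l lie head to head on chromosome 16 on opposite strands (Parp9 at chr16:35938470-35972605, Dtx3l at chr16:35926511-35939151) and share 682 bases. Whether fragments were counted by strand is not given in the sources used here, so fragments from the shared bases cannot be told apart. With ATRi, Parp9 had 4.40 and 3.86 FPKM in ΔUNG, 3.01 FPKM in ΔUNG_2, and 16.6 and 13.3 FPKM in the Cas9 control. With DMSO, Parp9 had 3.26 and 2.74 FPKM in ΔUNG, 2.67 and 2.18 FPKM in ΔUNG_2, and 6.71 and 6.62 FPKM in the Cas9 control. Its clone libraries were all below the untreated control libraries. Dtx3l had 2.09 and 2.69 FPKM in ΔUNG ATRi, 1.75 FPKM in ΔUNG_2 ATRi, and 9.61 and 7.91 FPKM in Cas9 control ATRi. Under the vehicle Dtx3l had 2.33 and 1.95 FPKM in ΔUNG, 2.03 and 1.19 FPKM in ΔUNG_2, and 3.92 and 3.48 FPKM in the control. Within each clone the ATRi and DMSO libraries of Dtx3l overlapped. The ratio of Parp9 to Dtx3l FPKM stayed between 1.32 and 2.10 over the 11 libraries, with a median of 1.71.

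Parp14 lies on the same stretch of chromosome 16 (chr16:35832874-35871544, minus strand), and 139.7 kb reach from its start to the end of Parp9. With ATRi, Parp14 had 2.55 and 2.78 FPKM in ΔUNG, 1.67 FPKM in ΔUNG_2, and 10.3 and 8.87 FPKM in the Cas9 control. With DMSO, Parp14 had 1.21 and 0.783 FPKM in ΔUNG, 0.653 and 0.648 FPKM in ΔUNG_2, and 3.20 and 2.61 FPKM in the Cas9 control. Its ATRi libraries were above its DMSO libraries in all 3 lines, and the ΔUNG ATRi libraries reached the range of the untreated control. The ratio of Parp14 to Parp9 FPKM moved more widely than that of Parp9 to Dtx3l, between 0.24 and 0.72. Parp12 (chr6:39086410-39118349, minus strand), an enzyme that adds single ADP-ribose units and restricts alphaviruses, had 6.89 and 6.64 FPKM in ΔUNG ATRi, 5.34 FPKM in ΔUNG_2 ATRi, and 34.4 and 33.4 FPKM in Cas9 control ATRi. With DMSO, Parp12 had 6.99 and 4.91 FPKM in ΔUNG, 5.62 and 5.13 FPKM in ΔUNG_2, and 16.3 and 15.0 FPKM in the Cas9 control. Its ATRi and DMSO libraries overlapped in each clone, and every clone library was below every control library.

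Samd9l (chr6:3372257-3399572, minus strand) restricts poxviruses and limits protein synthesis. With ATRi, Samd9l had 5.67 and 6.34 FPKM in ΔUNG, 3.74 FPKM in ΔUNG_2, and 21.4 and 16.04 FPKM in the Cas9 control. With DMSO, Samd9l had 4.93 and 4.30 FPKM in ΔUNG, 3.75 and 3.40 FPKM in ΔUNG_2, and 10.9 FPKM in both Cas9 control libraries. The clone libraries were all below the control, and the ΔUNG_2 ATRi value lay within the range of that clone's DMSO libraries. Rnf213 (chr11:119393100-119487418, plus strand) encodes a giant ubiquitin ligase that marks intracellular bacteria and lipid droplets. It had 8.60 and 9.11 FPKM in ΔUNG ATRi, 6.43 FPKM in ΔUNG_2 ATRi, and 33.5 and 30.5 FPKM in Cas9 control ATRi. Untreated, Rnf213 had 6.73 and 5.9998 FPKM in ΔUNG, 5.90 and 6.17 FPKM in ΔUNG_2, and 14.1 and 12.9 FPKM in the control. Every clone library was again below every control library. The antisense gene A930037H05Rik overlaps Rnf213, and fragments from the shared bases cannot be told apart.

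Ddx60 (chr8:61928087-62038244, plus strand) is a helicase reported in human cells to aid RNA sensing by RIG-I. It was the least abundant of the 10, with 28 to 60 fragments per clone library and 730 and 861 in the control libraries under ATRi, and 14 to 26 per clone library and 154 in each control library under DMSO. With ATRi, Ddx60 had 0.285 and 0.315 FPKM in ΔUNG, 0.162 FPKM in ΔUNG_2, and 3.48 and 3.07 FPKM in the Cas9 control. With DMSO, Ddx60 had 0.117 and 0.108 FPKM in ΔUNG, 0.128 and 0.0868 FPKM in ΔUNG_2, and 0.968 and 0.965 FPKM in the Cas9 control. Ddx60 passed the filter through the control, so its gap to the control is not independent of the filter. By the ratio of mean FPKM it stood at 9.15% of the control in ΔUNG and 4.94% in ΔUNG_2 under ATRi. Under DMSO it stood at 11.6% and 11.1%. Its promoter, printed above, holds 2 ISRE cores, as does that of Bst2, and a link between cores and RNA levels was not tested.

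Rtp4 (chr16:23520291-23614222, plus strand) is a chaperone of G-protein-coupled receptors that also binds viral RNA and inhibits flaviviruses. With ATRi, Rtp4 had 6.76 and 6.50 FPKM in ΔUNG, 5.16 FPKM in ΔUNG_2, and 39.9 and 38.3 FPKM in the Cas9 control. With DMSO, Rtp4 had 2.70 and 1.54 FPKM in ΔUNG, 1.77 and 1.49 FPKM in ΔUNG_2, and 10.7 and 9.75 FPKM in the Cas9 control. In all 3 lines the ATRi libraries were above the DMSO libraries, and no clone library reached the untreated control. The deposited coordinates of Rtp4 overlap Masp1, a complement protease on the opposite strand, so some fragments could belong to either. The log2 fold change of Masp1 in the Cas9 control, ATRi over DMSO, was -0.64, against 1.89 for Rtp4.

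Slfn9 (chr11:82978390-82991830, minus strand) belongs to the Schlafen family, some of whose human members cleave transfer RNA. Its values are uncertain to the extent that fragments can map to close copies such as Slfn8, which had at most 0.332 FPKM. With ATRi, Slfn9 had 3.38 and 3.24 FPKM in ΔUNG, 2.52 FPKM in ΔUNG_2, and 9.56 and 8.14 FPKM in the Cas9 control. With DMSO, Slfn9 had 7.85 and 8.44 FPKM in ΔUNG, 7.85 and 8.19 FPKM in ΔUNG_2, and 9.37 and 9.68 FPKM in the Cas9 control. The clone ATRi libraries stood apart below all others, while the control's ATRi and DMSO libraries overlapped. Slfn9 is therefore the 1 gene of the 10 with lower values in ATRi than in DMSO in both clones.

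Under DMSO, the comparison of each clone with the control asks how the effectors stand without ATR inhibition. These values were known when the genes were chosen, so they are given as a description. Fold changes are log2 differences of FPKM + 0.5 from limma, with standard errors, and understate the change of genes with low values. In ΔUNG they lay between -2.07 ± 0.17 for Rtp4 and -0.21 ± 0.09 for Slfn9, with a median of -1.16 over the 9 genes other than Ddx60, against 0.00 over all genes tested. In ΔUNG_2 they lay between -2.33 ± 0.17 for Rtp4 and -0.24 ± 0.09 for Slfn9, with a median of -1.46 over the 9, against -0.01 over all genes. Both comparisons use the same control libraries. The limma call of lower expression, at a Benjamini-Hochberg adjusted p below 0.05 over all genes, took in 7 of the 9 in ΔUNG (3.25% of all genes) and 8 in ΔUNG_2 (3.73%). Slfn9 was outside the call in both clones and Dtx3l outside it in ΔUNG, at -0.67 ± 0.19. Dtx3l was within the call in ΔUNG with limma-voom on fragment counts recovered from the FPKM (-0.79, adjusted p = 0.0197), with only the groups compared (adjusted p = 0.0474), and when either DMSO library of ΔUNG_2 was left out, at adjusted p-values of 0.0377 and 0.037. In ΔUNG_2 the Dtx3l value of -1.02 ± 0.19 lost its call without ΔUNG_2 DMSO replicate 2 (-0.73), without Cas9 control DMSO replicate 1 (-0.94) and without Cas9 control DMSO replicate 2 (-1.10). The 9 genes had libraries that did not overlap between clone and control, lower in the clone, as did 26.3% of all genes in ΔUNG and 30.2% in ΔUNG_2. For Ddx60, which passed the filter through the control, the value of -1.26 in ΔUNG became -2.33 with a pseudocount of 0.1 and -0.82 with a pseudocount of 1, and in ΔUNG_2 -1.27 became -2.37 and -0.83.

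The response to ATRi was compared within each line. In the Cas9 control it was also known when the genes were chosen: 8 of the 9 genes other than Ddx60 were within the call of higher expression, as were 16.8% of all genes, with log2 fold changes from 0.74 ± 0.13 for Samd9l to 1.89 ± 0.17 for Rtp4, and Slfn9 was outside it at -0.10 ± 0.09. Ddx60 stood at 1.36 ± 0.17. Those 8 also had higher, non-overlapping ATRi libraries, as did 33.7% of all genes. P-values of the following tests measure only the spread between these libraries. The titles call them bio replicates, but no source used here says that they came from separate cultures.

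In ΔUNG, 5 of the 10 genes rose with ATRi, as did 16.5% of all genes tested. These were Rtp4 (1.48 ± 0.17, limma adjusted p = 0.000202), Parp14 (1.09 ± 0.16, adjusted p = 0.000737), Bst2 (0.54 ± 0.13, adjusted p = 0.00914), Rnf213 (0.45 ± 0.09, adjusted p = 0.00384) and Parp9 (0.41 ± 0.14, adjusted p = 0.0434). Slfn9 fell (-1.18 ± 0.09, adjusted p = 2.25e-05), as did 19.4% of all genes. Samd9l (0.35 ± 0.13, adjusted p = 0.0656), Ddx60 (0.38 ± 0.17, adjusted p = 0.101), Parp12 (0.19 ± 0.13, adjusted p = 0.297) and Dtx3l (0.13 ± 0.19, adjusted p = 0.649) did not pass the limma test. The Bst2 call was lost without ΔUNG ATRi replicate 1 (0.47, adjusted p = 0.0605), and its value fell to 0.32 without ΔUNG DMSO replicate 2. The Parp9 call was lost in 10 of the 21 other fits, each with 1 choice changed or 1 library left out, at adjusted p-values up to 0.216, and that of Rnf213 was lost after rescaling to equal FPKM sums (0.41, adjusted p = 0.0892). Other fits added calls. Ddx60 was called higher with no filter (adjusted p = 0.0155), with no intensity trend (adjusted p = 0.00777) and with limma-voom, where its value was 1.39 (adjusted p = 0.0176), and at a pseudocount of 0.1 its value was 0.91. Samd9l was called after rescaling by the median of ratios (0.37, adjusted p = 0.0486) and when either treated library of the control was left out, at adjusted p-values of 0.0239 and 0.0233, and Parp12 without ΔUNG DMSO replicate 1 (0.42, adjusted p = 0.012).

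In ΔUNG_2, where the fit gives the single ATRi library the spread of the remaining groups, 2 of the 10 genes rose with ATRi, against 18.1% of all genes. Rtp4 rose by 1.41 ± 0.21 (limma adjusted p = 0.00108) and Parp14 by 0.91 ± 0.20 (adjusted p = 0.00632). Slfn9 fell (-1.49 ± 0.11, adjusted p = 3.25e-05), against 17.3% of all genes. The other 7 lay between -0.01 ± 0.16 for Parp12 and 0.27 ± 0.17 for Parp9 and did not pass. Rtp4 and Parp14 were thus the genes that rose in both clones, and Slfn9 the gene that fell in both. The 3 calls of ΔUNG_2 were kept when any other library was left out.

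**Figure D2:**
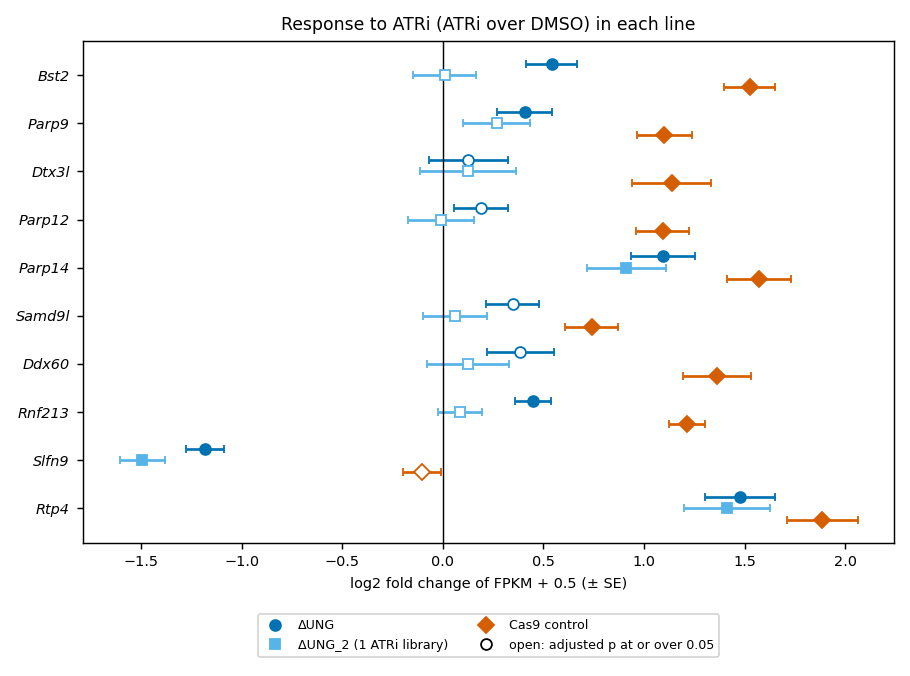
Log2 fold change (FPKM + 0.5) of ATRi over DMSO for each of the 10 genes in ΔUNG, ΔUNG_2 and the Cas9 control; bars are standard errors and open symbols have an adjusted p of 0.05 or more. Rtp4 and Parp14 are above 0 in all 3 lines, and Slfn9 is at -1.18 in ΔUNG and -1.49 in ΔUNG_2 but at -0.10 in the control.

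With ATRi present, the limma test called the 9 genes other than Ddx60 lower than in the control in ΔUNG, against 3.13% of all genes, and in ΔUNG_2, against 2.27%. The control ATRi libraries used here also entered the control's own response, which was known when the genes were chosen, so these calls are not independent of the choice. Ddx60, which passed the filter through the control, stood at -2.24 ± 0.17 in ΔUNG and -2.51 ± 0.20 in ΔUNG_2, and at -3.44 and -4.31 with limma-voom. In ΔUNG the log2 fold changes lay between -2.47 ± 0.17 for Rtp4 (adjusted p = 5.37e-05) and -1.29 ± 0.09 for Slfn9 (adjusted p = 5.67e-05), with a median of -1.73 over the 9. In ΔUNG_2 they lay between -3.10 ± 0.15 for Bst2 (adjusted p = 1.12e-05) and -1.63 ± 0.11 for Slfn9 (adjusted p = 6.71e-05), with a median of -2.22 over the 9. The median over all genes was -0.01 in ΔUNG and 0.00 in ΔUNG_2. By the ratio of means, Bst2 in ΔUNG stood at 19.0% of the control and in ΔUNG_2 at 11.5%, and Parp12 at 19.9% and 15.7%. Slfn9 stood at 37.4% of the control in ΔUNG and 28.5% in ΔUNG_2 under ATRi, and at 85.5% and 84.2% under DMSO. Libraries of clone and control did not overlap for any of the 9, as for 26.8% of all genes lower in ΔUNG and 38.1% lower in ΔUNG_2. The 9 calls held in both clones under each alternative that tested the gene.

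**Figure D3:**
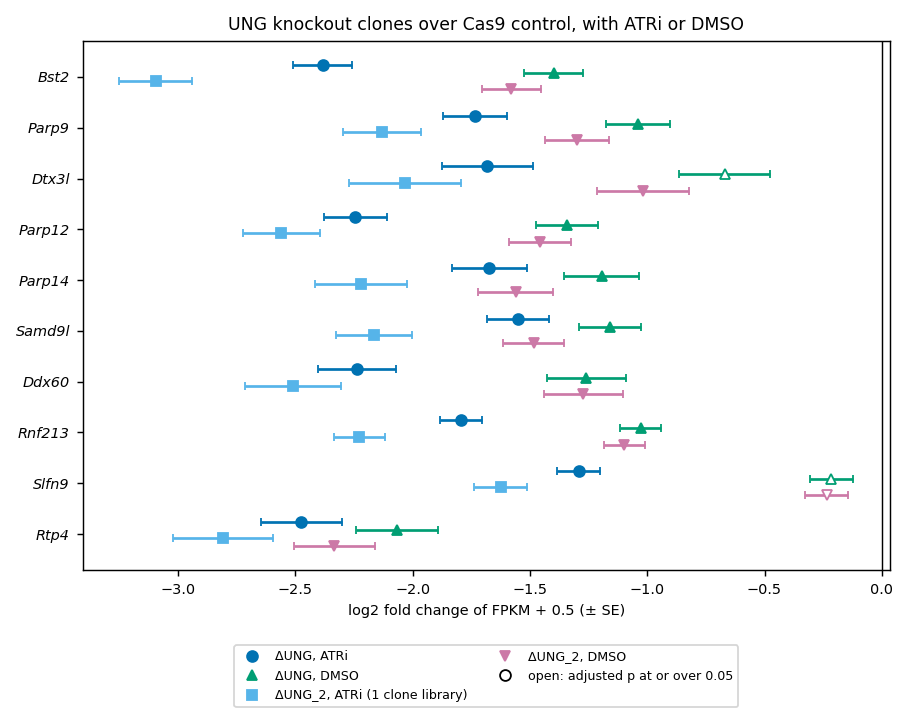
Log2 fold change (FPKM + 0.5) of each clone over the Cas9 control, with ATRi and with DMSO, for the 10 genes; bars are standard errors and open symbols have an adjusted p of 0.05 or more. Every gene is below 0 in all 4 comparisons, and in ΔUNG the value of Slfn9 is -1.29 with ATRi and -0.21 with DMSO.

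Whether the clones responded less than the control was tested as the difference between the responses, clone minus control, which has larger errors. The control's response was known when the genes were chosen and is subtracted in each difference, so genes with a high response there start below 0, and the values that follow are not independent of the choice. The 9 genes other than Ddx60 had differences below 0 in both clones, which share the control's libraries, as did 53.9% of all genes in ΔUNG and 49% in ΔUNG_2, and those of Ddx60 were -0.98 ± 0.24 (-0.37 with limma-voom) and -1.24 ± 0.26. In ΔUNG they ranged from -1.08 ± 0.13 for Slfn9 to -0.39 ± 0.19 for Samd9l, and limma called none, at adjusted p-values of 0.0516 to 0.503. Over all genes 0.0177% were called lower in this comparison. At an unadjusted p below 0.05 there were 6 of the 9, against 8.14% of all genes lower at that threshold. Ddx60, which passed the filter through the control, was below that p as well. Limma-voom on the recovered fragments called 4, Bst2, Parp12, Rnf213 and Slfn9, against 0.397% of all genes lower. In ΔUNG_2, 3 of the 10 were called lower, against 0.0353% of all genes. These were Bst2 (-1.52 ± 0.20), Slfn9 (-1.39 ± 0.15) and Rnf213 (-1.13 ± 0.14), each at a limma adjusted p of 0.0372. They made up 3 of the 4 genes called lower in the whole table. Each of these calls was lost under several other fits, and without 7 of the libraries, left out in turn, none of the 10 passed: both ΔUNG_2 DMSO, both Cas9 control DMSO and both ΔUNG ATRi libraries, and Cas9 control ATRi replicate 1. Adjusted p then lay between 0.0673 and 0.232 for these 3 genes, whose differences stayed at or below -1.06. Rtp4 and Parp14, which rose in both clones, had differences of -0.41 ± 0.25 and -0.48 ± 0.23 in ΔUNG and of -0.47 ± 0.28 and -0.66 ± 0.25 in ΔUNG_2, none of which passed.

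The clones were also set against each other. With ATRi, all 10 genes were lower in the ΔUNG_2 library than in both ΔUNG libraries, as were 35.5% of all genes, at log2 fold changes of -0.71 ± 0.15 for Bst2 to -0.27 ± 0.20 for Ddx60. None passed the limma test (adjusted p-values of 0.129 to 0.515), and over all genes 0.0177% were called lower. An unadjusted p below 0.05 was reached by 6, against 7.55% of all genes lower, and limma-voom called 2, Bst2 and Rnf213, against 0.795% of all genes lower. With DMSO the differences between the clones were smaller, from -0.36 ± 0.16 for Parp14 to -0.01 ± 0.17 for Ddx60. None passed limma there either (adjusted p-values of 0.795 to 0.9992), while 0.0265% of all genes were called lower. Limma-voom called none there, and 2 had an unadjusted p below 0.05, against 3.98% of all genes lower. In a comparison chosen after the values were seen, with no test, the ΔUNG ATRi libraries were below both untreated control libraries for 9 of the 10 genes, as for 37.7% of all genes. Parp14 overlapped, at 91.6% of the untreated control's mean. The ΔUNG_2 ATRi library was below the untreated control for all 10, as for 44.8% of all genes. Both of these counts take in Ddx60, which passed the filter through the control, so its place below the control is not independent of the filter.

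Across the 11 libraries the 9 genes other than Slfn9 followed each other closely on the log2 scale. Pearson's r lay between 0.91 and 1.00 over their 36 pairs, with a median of 0.97, while Slfn9 had r of 0.09 to 0.46 with the 9. The libraries share their lines and treatments and fall into 6 groups, so these values are a description. Among genes outside the 10 with a mean of at least 1 FPKM, the mean profile of the 10 was most like that of Usp18 (r = 0.99), a protease that removes ISG15 from proteins, and among the next were Gbp7, Eif2ak2 and Irgm2, all with r of at least 0.98. For Bst2 alone the nearest were Usp18, Gbp7 and Eif2ak2, the kinase PKR that stops translation in response to double-stranded RNA. Rnf213 was nearest to Usp18, Gbp7 and Dhx58, and Parp14 was nearest to Helz2, Rsad2 and Lgals3bp. Slfn9 had other neighbours: Isoc1 (r = 0.98), Pnpt1 (r = 0.97), the mitochondrial polynucleotide phosphorylase, and Rpf2 (r = 0.95), a ribosome assembly factor. Pnpt1 had mean levels of 17.1 FPKM in ΔUNG ATRi, 14.1 FPKM in ΔUNG_2 ATRi and 24.04 FPKM in Cas9 control ATRi, against 21.7, 22.4 and 25.7 FPKM in the same lines with DMSO.

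Of the other members of the ADP-ribosyltransferase family 12 were tested. Under ATRi 4 were called lower than in the control in ΔUNG, against 3.13% of all genes, and 3 in ΔUNG_2, against 2.27%. None was called higher. Parp10, which adds single ADP-ribose units, had the largest change (-1.57 ± 0.18 in ΔUNG, limma adjusted p = 0.001, and -1.32 ± 0.22 in ΔUNG_2, adjusted p = 0.0112). Parp11 followed (-0.98 ± 0.10, adjusted p = 0.000511, and -0.94 ± 0.12, adjusted p = 0.0031), then Zc3hav1, the antiviral protein ZAP that binds CpG-rich viral RNA (-0.44 ± 0.10, adjusted p = 0.0374, and -0.53 ± 0.13, adjusted p = 0.0453). Parp3 was lower in ΔUNG (-0.39 ± 0.08, adjusted p = 0.0179), while its value in ΔUNG_2 was -0.34 ± 0.09 (adjusted p = 0.0711). The DNA damage sensors Parp1 and Parp2 did not pass: Parp1 stood at -0.17 ± 0.09 in ΔUNG and 0.08 ± 0.11 in ΔUNG_2, and Parp2 at -0.21 ± 0.07 and -0.14 ± 0.09. Tnks, Tnks2, Tiparp, Parp4, Parp8 and Parp16 did not pass in either clone. The family median was -0.17 in ΔUNG and -0.21 in ΔUNG_2. In the response to ATRi, 4 of the 12 were called higher and 4 lower in ΔUNG, against 16.5% and 19.4% of all genes. In ΔUNG_2, 3 were called higher and 2 lower, against 18.1% and 17.3%. Within the clones ATRi raised Parp10 by 0.65 ± 0.18 in ΔUNG (adjusted p = 0.0205) and by 0.87 ± 0.22 in ΔUNG_2 (adjusted p = 0.0142), above the values of Parp9 and Parp12 there, and Parp10 stood at 1.18 ± 0.18 in the control. ATRi raised Parp3 by 0.69 ± 0.08 in ΔUNG (adjusted p = 0.000142) and by 0.77 ± 0.09 in ΔUNG_2 (adjusted p = 0.000321), and Parp2 fell (-0.65 ± 0.07, adjusted p = 0.000146, and -0.43 ± 0.09, adjusted p = 0.00532).

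**Figure D4:**
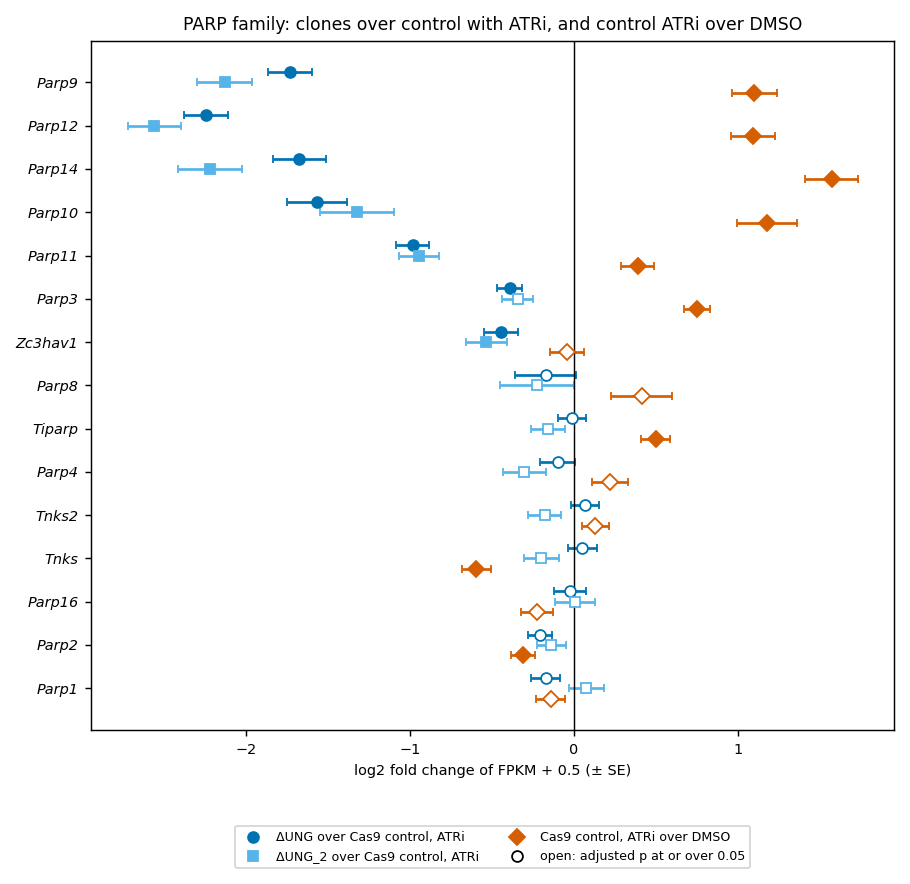
Log2 fold change (FPKM + 0.5) for the 15 family members tested, Parp9, Parp12 and Parp14 included: each clone over the Cas9 control under ATRi, and ATRi over DMSO in the control. Bars are standard errors, open symbols have an adjusted p of 0.05 or more, and the values of Parp9, Parp12, Parp14 and Parp10 lie farthest to the left in the clones.

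Of a list of 6 tested enzymes around the removal of ADP-ribose, among them Parg, 1 was called lower in ΔUNG under ATRi, against 3.13% of all genes. This was Tatdn2 (-0.59 ± 0.09, limma adjusted p = 0.00706), and none was called in ΔUNG_2. Of the other Deltex ubiquitin ligases, Dtx2 and Dtx3 were tested and neither was called in a clone against the control, while Dtx4 had at most 0.128 FPKM. Of the other Schlafen genes, Slfn3 alone passed the filter. It fell with ATRi in ΔUNG (-0.59 ± 0.10, adjusted p = 0.00183) and in ΔUNG_2 (-0.68 ± 0.12, adjusted p = 0.00292), and its value in the Cas9 control was -0.40 ± 0.10. Unlike Slfn9, it stood at 0.02 ± 0.10 in ΔUNG and -0.07 ± 0.12 in ΔUNG_2 against the control under ATRi, and neither passed. Slfn2, Slfn8 and Slfnl1 had at most 0.373 FPKM.

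A list of 53 other interferon-stimulated genes, of which 45 were tested, gives the setting of the 10. Under ATRi limma called 43 of the 45 lower than in the control in ΔUNG, against 3.13% of all genes, and 42 in ΔUNG_2, against 2.27%. The medians of the 45 were -1.62 and -1.70. Of the 45, 41 averaged at least 0.5 FPKM in the clone libraries alone, and of these 39 and 38 were lower. Over the 45, the largest were Trim30a (-4.08 ± 0.19 in ΔUNG and -4.46 ± 0.24 in ΔUNG_2), Usp18 (-2.96 ± 0.13 and -3.41 ± 0.17) and Igtp (-2.83 ± 0.33 and -3.13 ± 0.41). Trim30a, with group means of 0.161 to 0.585 FPKM in the clones, is not among the 41. It passed the filter through the control, as Ddx60 did. In the response to ATRi, ΔUNG had 29 of the 45 called higher (16.5% of all genes) and 1 lower (19.4%), with a median of 0.73. ΔUNG_2 had 26 of the 45 higher (18.1% of all genes) and 1 lower (17.3%), with a median of 0.72. The medians of the 10 effectors in these responses were 0.40 and 0.10. Ifit3b, an inhibitor of viral translation, rose by 1.51 ± 0.12 in ΔUNG (adjusted p = 2.29e-05) and by 1.96 ± 0.15 in ΔUNG_2 (adjusted p = 2.98e-05), and Lgals9 rose by 1.69 ± 0.15 (adjusted p = 4.15e-05) and by 1.69 ± 0.18 (adjusted p = 0.000177).

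Among genes of interferon signalling, Stat2 and Irf9, transcription factors that act at the ISRE, were lower in both clones than in the control under ATRi. Stat2 stood at -1.32 ± 0.12 in ΔUNG (limma adjusted p = 0.000251) and -1.57 ± 0.15 in ΔUNG_2 (adjusted p = 0.00039), and Irf9 at -1.35 ± 0.15 (adjusted p = 0.000816) and -1.79 ± 0.18 (adjusted p = 0.000664). Irf1 was lower in ΔUNG (-0.75 ± 0.14, adjusted p = 0.0147), while its value in ΔUNG_2 was -0.66 ± 0.17 (adjusted p = 0.0596). The receptor chains and the kinase Jak1 did not pass: under ATRi Ifnar1 stood at 0.17 ± 0.06 in ΔUNG and 0.16 ± 0.08 in ΔUNG_2, Ifnar2 at -0.30 ± 0.11 and -0.25 ± 0.14, and Jak1 at -0.11 ± 0.07 and -0.12 ± 0.09. ATRi raised Irf9 by 0.89 ± 0.15 in ΔUNG (adjusted p = 0.00158) and by 0.65 ± 0.18 in ΔUNG_2 (adjusted p = 0.0218).

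Genes beside the 10 were compared as well. Within 200 kb of any of them, 48 other genes were tested. Under ATRi 7 of the 48 were called lower in ΔUNG, against 3.13% of all genes, and 3 in ΔUNG_2, against 2.27%. The medians of the 48 were -0.10 and -0.01. Beside Samd9l, the uncharacterised genes Gm20559 and Gm43197 were lower in ΔUNG (-1.65, limma adjusted p = 0.000517, and -1.09, adjusted p = 0.0014) and in ΔUNG_2 (-1.95, adjusted p = 0.000835, and -2.17, adjusted p = 9.64e-05). Masp1, which overlaps Rtp4, was the other gene lower in both clones (-1.17, adjusted p = 5.37e-05, in ΔUNG and -0.90, adjusted p = 0.00117, in ΔUNG_2).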

How the data were processed

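Novogene prepared and sequenced 11 B16F10 libraries, per the labels' protocols. A deposited table gives FPKM per gene, 1 column per library, computed by the authors. HISAT2 was used, per the submitters' processing notes; the version, the counting tool, the annotation and the build used were not given in the sources used here. The authors' deposited read table gives the percent of bases at Q30 (92.4% to 94.0%) and the percent of G and C, used only to describe the libraries, and 1 row of it was not used. Of the 14528 genes, 14012, all 10 members included, have the coordinates of GENCODE M21 (GRCm38). Coordinates are those of the deposited table.

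Whole fragments were recovered from FPKM and gene length for 100% of values, within a tolerance of 0.01, and limma-voom on them was an alternative. Replicates of each group differed beyond counting noise (chi-square over its degrees of freedom 4.83 to 28.7), and all were kept as separate. Counting error alone limits a value of 0 to 3 fragments, which is 0.105 to 0.176 FPKM for a gene of 1 kb.

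Genes averaging 0.5 FPKM or more, 11323 in number, were tested on the scale log2(FPKM + 0.5) with limma (version 3.58.1, R 4.3.3). The model used 1 mean per group over all libraries, with an intensity trend and 5 residual degrees of freedom. P-values are two-sided, with Benjamini-Hochberg adjustment over all genes tested and a threshold of 0.05. The procedure was tested on simulated data. Errors are standard errors.

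Groups came from the sample titles. The 10 genes, the lists and the alternatives were chosen with earlier results of these data known. Genes named beside the 10 are the listed members of their families, up to 4 members per list with the largest change past the threshold, and the genes with the most similar profiles; those singled out otherwise (Cd68, Masp1, Gm20559, Gm43197, Parp1, Parp2, the receptor chains and Jak1) were chosen after their values were seen. Some results of the signalling list and of the profile ranking are not reported here. Alternatives were pseudocounts of 0.1 and 1, no filter or a filter at 2 FPKM, 2 rescalings, no intensity trend, limma-voom, only the groups compared, a replicate block, and leaving out each library. Python 3.11.15 with matplotlib 3.10.9 drew the figures.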

Additional observations from a re-analysis of the deposited data

Results flagged for a closer look

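The difference in ATRi response between ΔUNG_2 and the Cas9 control passed the limma test for 3 of the 10 genes, at an adjusted p of 0.0372 each: -1.52 for Bst2, -1.39 for Slfn9 and -1.13 for Rnf213 on the log2 scale. These were singled out because the effect of the inhibitor differed between the lines in a test of the difference itself. The control's response enters that difference and was known when the genes were chosen, so the values are a description and not independent of the choice. Bst2 and Rnf213 stood at 0.01 ± 0.15 and 0.08 ± 0.11 in ΔUNG_2 and at 1.52 ± 0.13 and 1.21 ± 0.09 in the control. Slfn9 stood at -1.49 ± 0.11 in ΔUNG_2 and at -0.10 ± 0.09 in the control. The ΔUNG_2 response rests on 1 ATRi library. Over all genes 0.0353% were called lower in this comparison. Each of the 3 calls was lost under several other fits, that with the replicate block among them.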

How the results depend on the processing

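Leaving out each library in turn gave 8 to 9 of the 10 genes past the threshold for ΔUNG against the control under DMSO, 8 to 9 for ΔUNG_2, 9 for ATRi in the control, 4 to 7 for ATRi in ΔUNG, 3 for ATRi in ΔUNG_2, 10 for each clone against the control under ATRi, 0 for ΔUNG_2 against ΔUNG with either treatment, 0 to 2 for the response difference of ΔUNG and 0 to 4 for that of ΔUNG_2. For the response difference of ΔUNG, 0 in the fit reported, the count was 1 with a pseudocount of 0.1, 1 with a pseudocount of 1, 1 with a filter at 2 FPKM, 2 with no intensity trend and 4 with limma-voom. For that of ΔUNG_2, 3 in the fit reported, it was 1 with no filter, 1 after rescaling to the same FPKM sum, 1 with only the groups compared, 0 with the replicate block, 2 with no intensity trend (Slfn9 and Ddx60) and 4 with limma-voom (the 3 and Parp12). For ΔUNG_2 against ΔUNG under ATRi, 0 in the fit reported, it was 2 with limma-voom. Limma-voom called 0.397% of all genes lower for the response difference of ΔUNG. For ΔUNG_2 against ΔUNG under ATRi it called 0.795% lower. Shares of all genes under the other fits are not given here, so these counts cannot be set against them. The counts of members take in Ddx60, which passed the filter through the control. The cause of these changes in count was not tested. Rescaling to the same FPKM sum moved the median of all genes to -0.11 for ΔUNG and -0.13 for ΔUNG_2 under DMSO and to -0.11 for ΔUNG under ATRi. The gene Gm23935 alone held 10.3% to 26.3% of the FPKM sum of a library, and its part in this rescaling was not tested. Without ΔUNG_2 ATRi the response of that clone could not be fitted.

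Some small, uncalled log2 fold changes turned sign. Over the fits that leave out 1 library, Slfn9 with ATRi in the control ranged from -0.214 to 0.0054. With ATRi in ΔUNG, Dtx3l ranged from -0.0232 to 0.2759 and Parp12 from -0.0454 to 0.4237. With ATRi in ΔUNG_2, Bst2 ranged from -0.0062 to 0.0223, Dtx3l from -0.1653 to 0.4109, Parp12 from -0.0694 to 0.051 and Samd9l from -0.0008 to 0.121, and Bst2 was at -0.031 after rescaling to the same FPKM sum. For ΔUNG_2 against ΔUNG under DMSO, Bst2 ranged from -0.4034 to 0.044, Parp12 from -0.3513 to 0.1178, Ddx60 from -0.0619 to 0.0364, Rnf213 from -0.1458 to 0.008, Slfn9 from -0.0707 to 0.0289 and Rtp4 from -0.5893 to 0.0554. The libraries behind the opposite signs were the clones' own DMSO libraries, ΔUNG ATRi replicate 2 for Dtx3l and Cas9 control ATRi replicate 2 for Slfn9.

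The labels number the replicates but do not say that a number marks a shared culture or day. Deviations of same-numbered libraries correlated at -0.124 to 0.0436, which cannot show whether a culture or day was shared. With the replicate block, the counts were 8, 9, 9, 6, 3, 10 and 10 for the first 7 comparisons above, as in the fit reported, and 0 for both response differences, at an adjusted p of 0.0744 for Bst2, Slfn9 and Rnf213 in ΔUNG_2; Bst2 with ATRi in ΔUNG_2 was then at -0.0511. A crossed pairing of ΔUNG ATRi with Cas9 control ATRi, chosen after seeing the data, gave 10 calls, as the uncrossed pairing did.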
